A study of Mus musculus with 31 samples.

Results

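The 10 integrin genes described here were those whose symbols are Itgax, Itgam, Itgal, Itgb2, Itga4, Itgb7, Itgae, Itgb1, Itga6 and Itgb5, 10 of the 24421 genes counted. All 10 were present in every count file and passed the filter on low counts, which left 13039 genes. The cells were sorted by FACS from Balb/c hearts, taken at an age of 8 to 12 weeks. The MI groups came from hearts in which the left anterior descending coronary artery had been tied off for good to give a myocardial infarction, and the SS groups from hearts in the steady state. Each state holds cDC1 and cDC2 (the type 1 and type 2 conventional dendritic cells), CD11c+ monocyte-derived cells (labelled moDCs, monocyte-derived dendritic cells) and CD11c- monocyte-derived cells (labelled macrophages). There were 4 libraries in each of the 8 groups except MI cDC2, which had 3. The sources used here do not give the time after ligation, the sorting antibodies, whether SS hearts had a sham operation or whether a library pooled several hearts. P-values therefore measure the spread between libraries, and any difference in how all MI and all SS hearts were prepared cannot be told apart from MI.

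Integrins are cell surface receptors made of 1 alpha and 1 beta subunit, and a leukocyte's set of subunits fixes which ligands it can bind. The beta2 subunit, coded by Itgb2, pairs with CD11a (Itgal, forming LFA-1), CD11b (Itgam, forming the complement receptor Mac-1) and CD11c (Itgax). Itgb7 pairs with CD103 (Itgae), which binds E-cadherin, or with the alpha4 subunit (Itga4), while Itgb1 pairs with alpha4, with the laminin-binding alpha6 subunit (Itga6) and with many others. Itgb5 pairs with alphaV, a receptor for vitronectin that phagocytes use in taking up dying cells. CD11c and CD11b are in wide use as sorting antigens for dendritic cells and macrophages, and CD103 marks cDC1 in many mouse tissues.

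Each library held 9148624 to 16531349 reads in genes. Marker sums were set beside the sort labels. A list of 10 cDC1 genes summed to 11437 to 14275 CPM (counts scaled to a common library total) in the cDC1 libraries and to at most 1255 CPM elsewhere. A list of 6 cDC2 genes was highest in cDC2, at 3682 to 5265 CPM, and reached at most 2615 CPM elsewhere. A list of 11 macrophage genes summed to 22105 to 49751 CPM in the CD11c+ and CD11c- cells. In cDC2 that macrophage sum was 5261 to 8651 CPM in MI against 19557 to 32461 CPM in SS, so the SS cDC2 libraries held more macrophage transcripts. The SS cDC2 range overlapped that of SS CD11c+ cells (31034 to 40702 CPM), so this list does not separate them. Reads in no annotated feature made up 6.854% to 10.949% of the MI libraries, against 11.566% to 16.914% of the SS libraries numbered 1 and 4 and 6.419% to 9.26% of those numbered 2 and 3. In bulk libraries, fewer cells of a type and less RNA per cell cannot be told apart.

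Itgam and Itgax, which code for CD11b and CD11c, lie side by side on the plus strand of chromosome 7 (Itgam at chr7:128062640-128118491 and Itgax at chr7:128129547-128150657, mm10), 11055 bp apart. Itgal lies on the same chromosome at chr7:127296260-127335138. The others lie at chr10:77530252-77565708 (Itgb2), chr2:79255426-79333123 (Itga4), chr15:102215995-102231944 (Itgb7), chr11:73090583-73147446 (Itgae), chr8:128685654-128733200 (Itgb1), chr2:71745616-71858416 (Itga6) and chr16:33829665-33949338 (Itgb5). The promoters of the neighbours are shown because their RNA levels differed so much between the sorted cells. Each line gives RefSeq sequence of build GRCm38.p6 on the plus strand, 300 bases with 250 before and 50 from the start site, at chr7:128129300-128129599 for Itgax and chr7:128062390-128062689 for Itgam. Capitals mark the letters GAGGAA or its reverse complement TTCCTC, the PU box that the myeloid factor PU.1 is known to bind.
Itgax: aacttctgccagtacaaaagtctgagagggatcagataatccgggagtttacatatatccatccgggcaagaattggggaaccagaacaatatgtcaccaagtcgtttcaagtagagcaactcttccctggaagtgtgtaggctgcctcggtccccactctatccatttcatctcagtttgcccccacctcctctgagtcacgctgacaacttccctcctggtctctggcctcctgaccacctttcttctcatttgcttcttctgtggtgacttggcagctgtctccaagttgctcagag
Itgam: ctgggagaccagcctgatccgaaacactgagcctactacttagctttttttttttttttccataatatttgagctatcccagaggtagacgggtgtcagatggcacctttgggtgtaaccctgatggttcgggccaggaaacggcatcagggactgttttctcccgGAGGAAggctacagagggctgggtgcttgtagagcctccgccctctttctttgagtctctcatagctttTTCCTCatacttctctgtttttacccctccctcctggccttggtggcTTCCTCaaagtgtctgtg
The Itgam window held 3 PU boxes and the Itgax window 0, and 28.3% of 32851 promoters of this length held at least 1. Letters that match are a description and show no binding, and their absence from this window says nothing of the factor. Promoters of 6 of the 10 genes were found in the RefSeq table.

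**Figure D1:**
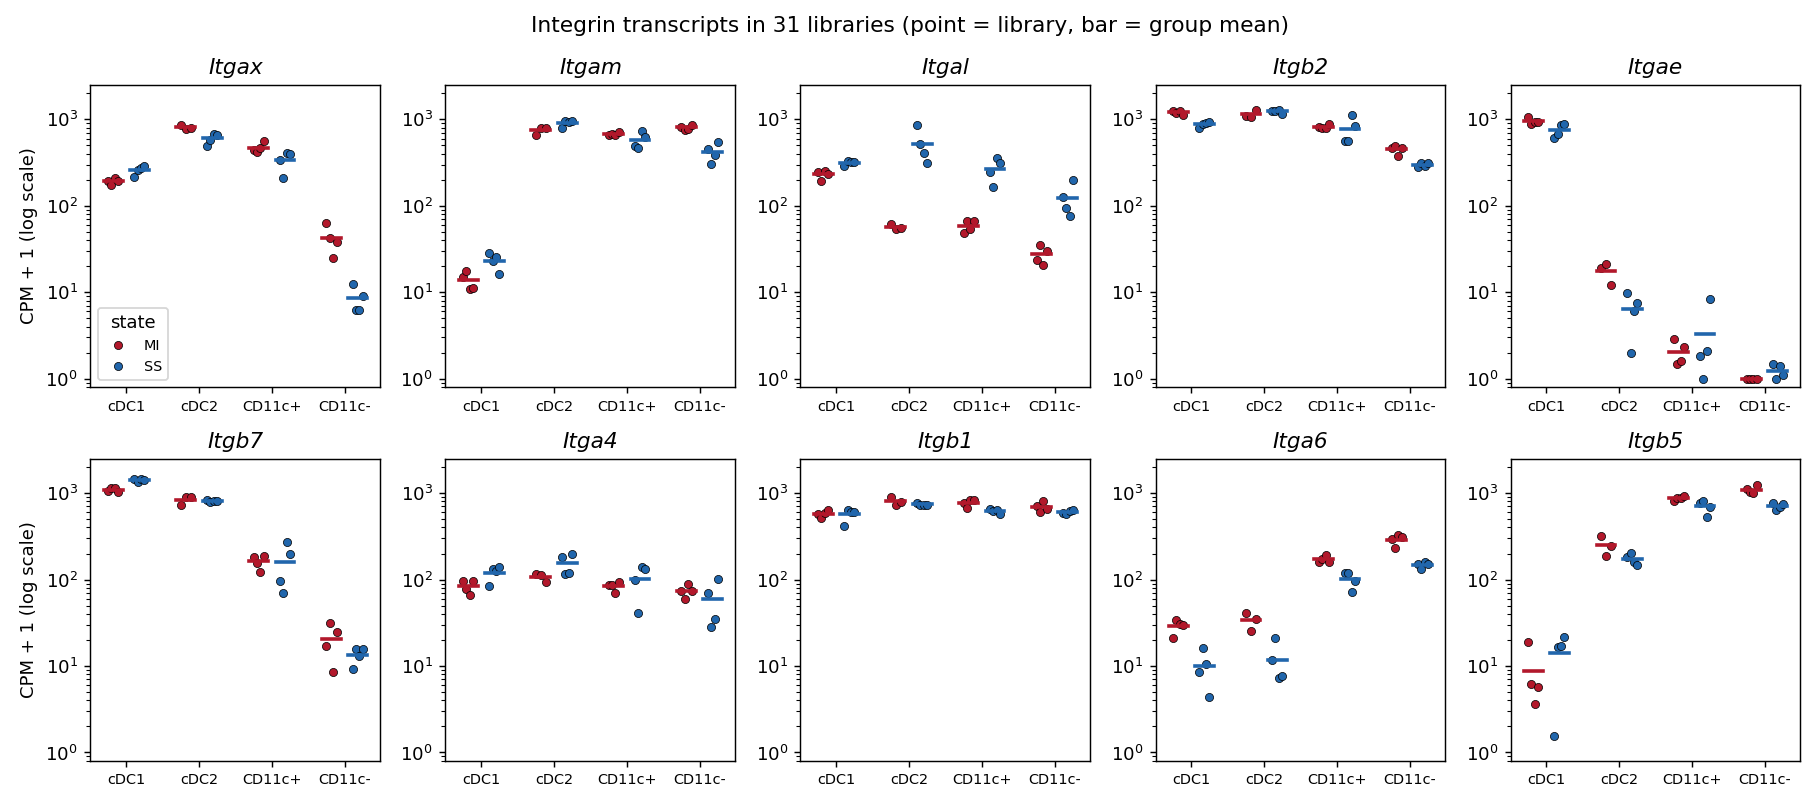
Level of each of the 10 integrin genes, as CPM + 1 on a log scale, in the 31 libraries, by cell type, with MI left of SS. Points are libraries and bars are group means. Itgae stands at 615.3 to 1074 CPM in cDC1 and at most at 20.33 CPM elsewhere, while Itgb1 stays between 417.8 and 890.5 CPM in all libraries.

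Itgax RNA followed the CD11c sort in both states. In MI it stood at 437.8, 422.5, 462.1 and 562.2 CPM in CD11c+ cells, against 61.92, 40.88, 23.93 and 36.96 CPM in CD11c- cells. In SS it stood at 333.4, 206.3, 409.3 and 399.4 CPM in CD11c+ cells, against 11.35, 5.197, 5.298 and 8.158 CPM in CD11c- cells. The groups did not overlap in either state, and every CD11c- library still held Itgax reads. The fitted ratio of CD11c+ to CD11c- cells was 11.5-fold in MI and 44.8-fold in SS, the 280th and 101st highest of the 13039 genes. Because CD11c is the sorting antigen, this gap describes the sort and is not a finding.

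**Figure D2:**
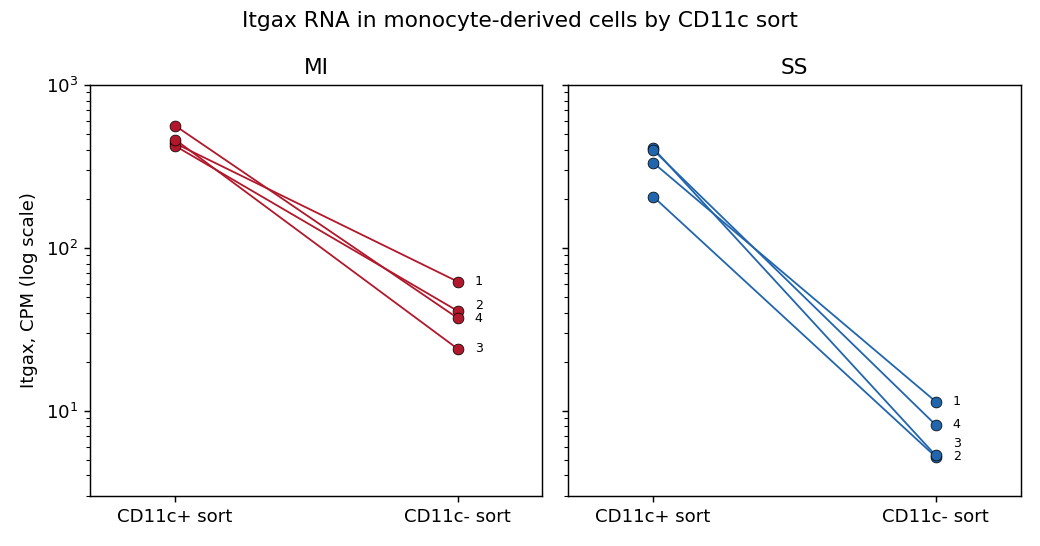
Itgax level in CPM (log scale) in the CD11c+ and CD11c- cells of MI (left panel) and SS (right panel), with lines joining libraries that carry the same number, which the labels do not say came from the same hearts. The ratio within a number is 7.07 to 19.3 in MI and 29.4 to 77.3 in SS.

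Within the CD11c- cells, Itgax rose 5.45-fold in MI, to 40.9 ± 15.8 CPM against 7.5 ± 2.91 CPM in SS (SD, n = 4 each, log2 change 2.45 ± 0.25 SE, adjusted p = 9.52e-08). In CD11c+ cells it averaged 471 ± 62.9 CPM in MI and 337 ± 93.5 CPM in SS, and the difference did not pass the test although the libraries of the 2 states did not overlap (log2 change 0.48, adjusted p = 0.217). The MI effect in CD11c+ cells less that in CD11c- cells was -1.96 ± 0.32 SE on the log2 scale (adjusted p = 0.0031), a difference called for 0.291% of all genes. With the 4 groups of this contrast fitted alone it was -1.95 and was not called (adjusted p = 0.0609). A list of 4 monocyte genes moved with Itgax in CD11c- cells, at 1947 to 2490 CPM in MI against 370.2 to 544 CPM in SS, and 4 genes shared by dendritic cells summed to 50.4 to 63.8 CPM in MI against 29.7 to 59 CPM in SS. Their part in the rise of Itgax was not tested, and the sources used here do not give the gate settings.

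In the conventional dendritic cells Itgax did not pass the test between states. It stood at 850.9, 775 and 798.2 CPM in MI cDC2 against 489.4, 568.9, 684.3 and 665 CPM in SS cDC2 (adjusted p = 0.255), and at 192.8, 171.2, 207 and 192.7 CPM in MI cDC1 against 212.9, 261.8, 272.3 and 284.3 CPM in SS cDC1 (adjusted p = 0.25). The libraries of the 2 states did not overlap in either cell type, higher in MI for cDC2 and lower in MI for cDC1. With only the 2 groups of a cell type fitted, both differences were called (adjusted p = 0.0479 in cDC2 and 0.0229 in cDC1). By level, Itgax ran from cDC2 through CD11c+ cells and cDC1 to CD11c- cells in both states. The neighbours cDC1 and CD11c+ cells differed in MI (log2 difference -1.30 ± 0.22 SE, adjusted p = 1.51e-05), while in SS that difference missed the threshold (-0.39, adjusted p = 0.181). The step between cDC2 and CD11c+ cells passed in both states (adjusted p = 0.0252 in MI and 0.00745 in SS), but in MI it was lost when any of 6 libraries was left out (adjusted p up to 0.0909). The MI effect on Itgax differed among the 4 cell types (F test, adjusted p = 6.66e-06).

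Itgam, which codes for the alpha subunit of Mac-1, was lowest in cDC1 and high in the other cells. It averaged 805 ± 46.2 CPM in MI CD11c- cells against 423 ± 104 CPM in SS CD11c- cells, a 1.9-fold rise (adjusted p = 0.000331). In CD11c+ cells it averaged 675 ± 26.8 CPM in MI and 582 ± 128 CPM in SS (adjusted p = 0.558). In cDC2 it averaged 749 ± 74.8 CPM in MI and 904 ± 80.3 CPM in SS (adjusted p = 0.367). In the CD11c- cells the libraries of the 2 states stood apart, at 758.3 to 863.3 CPM in MI against 301.7 to 547.6 CPM in SS. The monocyte sum, given above beside Itgax, was also higher in these MI libraries, and its part was not tested. In cDC1 it fell 1.75-fold, at 13.99, 16.66, 9.933 and 10.35 CPM in MI against 27.34, 21.9, 24.41 and 15.3 CPM in SS (adjusted p = 0.00316). These cDC1 libraries overlapped, and the call was lost with the cDC1 groups fitted alone (adjusted p = 0.0636). The macrophage sum moved with it in cDC1, at 998 to 1299 CPM in MI against 1956 to 2350.3 CPM in SS, and its part in the fall was not tested. The MI effect on Itgam differed among the cell types (F test, adjusted p = 6.35e-05). Gm49368, which GENCODE M21 annotates over Itgam on the same strand and which is not a row of the count files, shares 65.2% of the 75-base stretches of Itgam.

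Itgal, the alpha subunit of LFA-1, fell in MI in 3 of the 4 cell types. In cDC2 it stood at 61.2, 53.26 and 54.82 CPM in MI against 869.2, 515.9, 402.5 and 310.4 CPM in SS, a 9.29-fold fall (log2 change -3.22 ± 0.32 SE, adjusted p = 8.36e-08). In CD11c+ cells it stood at 47.5, 64.88, 52.25 and 66.14 CPM in MI against 245.3, 164.5, 354.4 and 308.7 CPM in SS, a 4.65-fold fall (adjusted p = 8.73e-06). In CD11c- cells it stood at 22.87, 34.56, 19.91 and 29.19 CPM in MI against 126.3, 93.84, 75.52 and 195.5 CPM in SS, a 4.61-fold fall (adjusted p = 5.84e-06). Every MI library lay under every SS library in all 3. In cDC1 Itgal averaged 230.2 ± 28.2 CPM in MI and 314 ± 15.9 CPM in SS, which did not pass the test (adjusted p = 0.362) except with the cDC1 groups fitted alone (0.014). The MI effect on Itgal differed among the cell types (F test, adjusted p = 0.000197).

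LFA-1 is carried by lymphocytes and neutrophils too, so their marker sums are given beside Itgal. In cDC2, 7 T cell genes found of a list of 8 summed to 4.66 to 7.32 CPM in MI against 51.5 to 109 CPM in SS, with Cd3e, Cd3d, Cd3g and Bcl11b at 0 in MI. In CD11c+ cells the T cell sum was 6.58 to 12.2 CPM in MI against 14.8 to 64.7 CPM in SS, and in CD11c- cells 2.79 to 4.55 CPM in MI against 3.91 to 11.7 CPM in SS. The T cell sums of the 2 states overlapped in CD11c- cells and not in the other 2. The NK list of 5 genes summed to 12.6 to 18.5 CPM in MI cDC2 against 13.9 to 24.1 CPM in SS cDC2, which overlapped. It was 3.39 to 6.31 CPM in MI against 7.48 to 25.6 CPM in SS in CD11c+ cells, and 0 to 0.619 CPM in MI against 3.73 to 16.4 CPM in SS in CD11c- cells, without overlap. The B cell list of 5 genes summed to 4.24 to 6.94 CPM in MI cDC2 against 10.9 to 20 CPM in SS cDC2, to 14.1 to 17 CPM in MI against 28.2 to 41.6 CPM in SS in CD11c+ cells, and to 22.8 to 37 CPM in MI against 26 to 45.6 CPM in SS in CD11c- cells. The neutrophil list, 5 genes found of 6, summed to 18.3 to 30.6 CPM in MI cDC2 against 33.1 to 121 CPM in SS cDC2, without overlap. In CD11c+ cells it was 109 to 122 CPM in MI against 89.2 to 376 CPM in SS, and in CD11c- cells 144 to 181 CPM in MI against 78.6 to 184 CPM in SS, overlapping in both. Over SS cDC2 libraries 1 to 4 the neutrophil sum was 121, 81.8, 45.2 and 33.1 CPM and the T cell sum 51.5, 109, 100.3 and 61.9 CPM. The part of these cells, and of the macrophage transcripts in SS cDC2, in the fall of Itgal was not tested.

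Itgb2, the shared partner of these alpha subunits, was higher in MI in the CD11c- cells and in cDC1. It averaged 449.6 ± 51 CPM in MI CD11c- cells against 299 ± 18.5 CPM in SS, a 1.51-fold rise (adjusted p = 0.00621). In cDC1 it averaged 1205 ± 56.7 CPM in MI against 876 ± 61 CPM in SS, a 1.37-fold rise (adjusted p = 0.0311), which was lost when any of 6 libraries was left out (adjusted p up to 0.0964) and against SS libraries 2 and 3 alone (0.137). The monocyte sum was higher in MI in both, in CD11c- cells as given above and in cDC1 at 2274 to 2798 CPM in MI against 1375 to 1819 CPM in SS, and its part was not tested. Its median was higher in cDC1 than in CD11c- cells (2715 against 2396 CPM in MI, 1724 against 516 CPM in SS). The list is therefore not particular to monocyte-derived cells. In cDC2 Itgb2 averaged 1147 ± 115 CPM in MI and 1233 ± 59.3 CPM in SS (adjusted p = 0.728), and in CD11c+ cells 825 ± 33.9 CPM in MI and 762 ± 263 CPM in SS (adjusted p = 0.747).

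**Figure D3:**
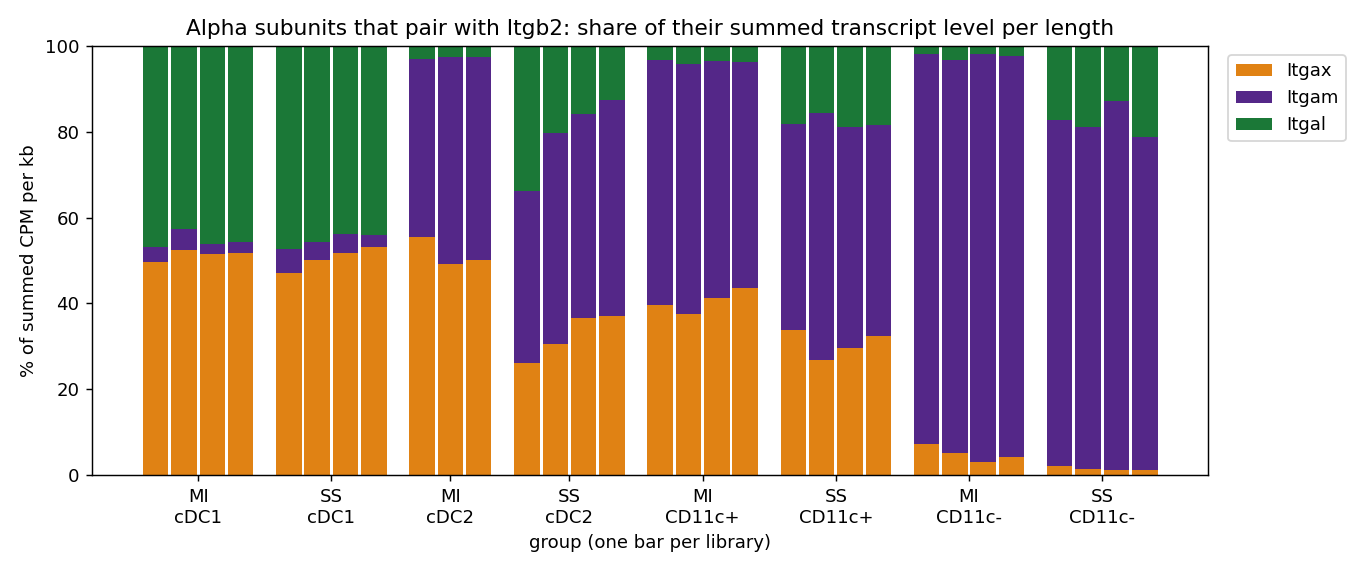
Share of Itgax, Itgam and Itgal in the summed level of the beta2 alpha subunits (CPM per kb of transcript, in percent) with 1 stacked bar per library, grouped by cell type with MI left of SS. Itgad, at most 0.322% in any library, is not drawn. The mean share of Itgal is 2.35% to 3.63% in MI groups, against 17.5% to 20.6% in SS groups, in all cell types but cDC1.

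Set per kb of transcript, so that genes of unlike length can be compared, the beta2 alpha subunits were mixed in unlike shares. In cDC1, Itgax and Itgal made up 51.4% and 45.1% of the alpha level in MI and 50.5% and 45.2% in SS, and Itgam the small rest. In cDC2 the share of Itgal was 2.64 ± 0.25% in MI against 20.6 ± 9.38% in SS, and that of Itgax 51.6 ± 3.5% in MI against 32.6 ± 5.25% in SS. In CD11c+ cells Itgal made up 3.63 ± 0.47% in MI against 17.8 ± 1.45% in SS. In CD11c- cells Itgam made up 92.8 ± 1.89% in MI and 81 ± 3.59% in SS, and Itgax 4.9 ± 1.76% in MI and 1.49 ± 0.42% in SS. The summed alpha level over that of Itgb2, both per kb, was 0.196 in MI cDC1 and 0.369 in SS cDC1, and 0.873 to 1.18 in the other MI groups against 0.933 to 1.07 in the other SS groups. These are RNA levels and carry no measure of the heterodimers on the cell surface. Shares are parts of a sum, so when one falls the others rise, and they were not tested.

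Itgae, the CD103 subunit, was high in cDC1 and low in the other cells. It stood at 1074, 887.9, 921.4 and 928.9 CPM in MI cDC1 against 615.3, 668.4, 851.6 and 870.8 CPM in SS cDC1. The states did not overlap but the difference did not pass the test (log2 change 0.34, adjusted p = 0.777). In cDC2 it was 17.89, 20.33 and 11.18 CPM in MI against 8.93, 0.9584, 5.035 and 6.554 CPM in SS, a difference that also missed the threshold (log2 change 1.60, adjusted p = 0.0823). With the libraries' number as a block that call was gained (adjusted p = 0.0385), as it was with SS libraries 2 and 3 alone (0.0107). MI CD11c- cells held 0 reads of Itgae and SS CD11c- cells 10. Set against a floor of 3 reads over the group of MI CD11c- cells, Itgae was at least 14685-fold higher in MI cDC1 and at least 254-fold higher in MI cDC2.

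Its partner Itgb7 was high in both kinds of conventional dendritic cell. It averaged 1092 ± 46.3 CPM in MI cDC1 and 1413 ± 55.1 CPM in SS cDC1 (adjusted p = 0.557, or 0.00857 with these groups fitted alone), and 836 ± 91.9 CPM in MI cDC2 and 807 ± 14 CPM in SS cDC2 (adjusted p = 0.957). In CD11c+ cells it averaged 161 ± 29.8 CPM in MI and 158 ± 93.5 CPM in SS, and in CD11c- cells 19.4 ± 9.72 CPM in MI and 12.5 ± 2.99 CPM in SS, neither of which passed the test. Itgb7 rose with the CD11c sort, by 8.29-fold over CD11c- cells in MI (adjusted p = 2.67e-07) and 12.7-fold in SS (adjusted p = 1.79e-08). Per kb of transcript, the level of Itgae over that of Itgb7 was 0.529 ± 0.059 in MI cDC1 and 0.322 ± 0.051 in SS cDC1, and at most 0.0223 in any library of the other cells except one of SS CD11c-, at 0.0348.

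Itga6, the laminin-binding alpha subunit, rose in MI in both conventional dendritic cells. In cDC1 it stood at 20.36, 33.33, 29.99 and 28.58 CPM in MI against 7.571, 15.36, 9.626 and 3.412 CPM in SS, a 3.13-fold rise (adjusted p = 0.000689). In cDC2 it stood at 39.64, 24.5 and 33.72 CPM in MI against 10.6, 19.91, 6.239 and 6.741 CPM in SS, a 3.01-fold rise (adjusted p = 0.00126). All MI libraries lay above all SS libraries in both. Its levels were higher in the monocyte-derived cells, at 289 ± 41.2 CPM in MI and 148 ± 11.5 CPM in SS CD11c- cells, a 1.95-fold rise (adjusted p = 0.0335). That call was lost when any of 7 of the 8 libraries was left out (adjusted p up to 0.0941). In CD11c+ cells it averaged 169.8 ± 16.4 CPM in MI and 101 ± 22.6 CPM in SS, and did not pass (adjusted p = 0.13), except with those groups fitted alone (0.0113). Endothelial cells also express Itga6. Their 9 markers summed to 6.21 to 10.9 CPM in MI cDC1 against 53.4 to 239 CPM in SS cDC1. In cDC2 they summed to 36.9 to 47.8 CPM in MI against 38.2 to 154 CPM in SS, which overlapped. The monocyte sum was higher in MI cDC1, with the limit given above, and overlapped in cDC2 (2190.1 to 2863 CPM in MI, 2121 to 2662 CPM in SS). The macrophage sum was lower in MI in both cell types. The part of these cells in the rise of Itga6 was not tested.

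Itgb5, the partner of alphaV, was highest in the monocyte-derived cells and lowest in cDC1. It averaged 1089.7 ± 114 CPM in MI CD11c- cells and 709 ± 61.1 CPM in SS, without overlap but without passing the test (adjusted p = 0.495). With the CD11c- groups fitted alone the call was gained (adjusted p = 0.00472). It averaged 869.8 ± 42.9 CPM in MI CD11c+ cells and 699.7 ± 124 CPM in SS (adjusted p = 0.801), and 248 ± 65 CPM in MI cDC2 and 171 ± 25.1 CPM in SS (adjusted p = 0.546). In cDC1 it was at 18.2, 5.226, 2.599 and 4.712 CPM in MI against 0.5408, 15.74, 16.18 and 20.67 CPM in SS (adjusted p = 0.467), and the libraries overlapped. Without SS cDC1 library 1 the fall was called (adjusted p = 0.0313). Between cell types in MI, Itgb5 was 143-fold lower in cDC1 than in CD11c- cells (adjusted p = 2.22e-10), or 261-fold without the high MI cDC1 library.

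Itgb1 and Itga4, whose proteins form VLA-4, did not pass the test between states in any cell type. Itgb1 averaged 579 ± 50.2 to 803 ± 83.9 CPM over the MI groups and 565 ± 99.1 to 743 ± 20.1 CPM over the SS groups, and its smallest adjusted p between states was 0.097, in CD11c+ cells. Itga4 averaged 72.8 ± 12.1 to 106 ± 12.4 CPM over the MI groups and 57.9 ± 34.4 to 153 ± 43 CPM over the SS groups, with a smallest adjusted p of 0.367, in cDC2. Against SS libraries 2 and 3 alone it was called higher in MI CD11c- cells (log2 change 1.255, adjusted p = 0.0121). Against SS libraries 1 and 4 alone it was called lower in MI cDC2 (log2 change -0.836, adjusted p = 0.0128). Cerkl overlaps Itga4 on the other strand, and the sources used here do not say whether counting used strand.

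**Figure D4:**
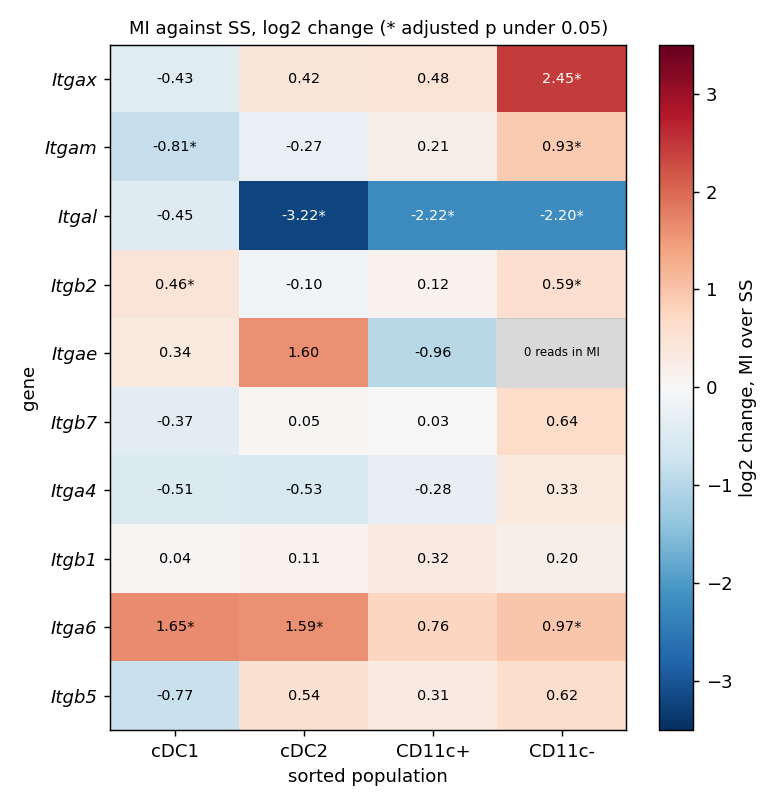
Log2 change of each integrin gene in MI against SS for the 4 cell types, with an asterisk where the adjusted p is under 0.05 and a grey cell where MI holds 0 reads. Itgal is low in MI at -2.20 to -3.22 in 3 cell types, and Itgax is high in CD11c- cells at 2.45.

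Counted over the 10 genes, 4 rose and 1 fell in MI CD11c- cells, where 7.39% of all genes changed (4.01% rose and 3.37% fell). In CD11c+ cells 0 rose and 1 fell, where 4.84% changed (1.52% rose and 3.32% fell). In cDC1 2 rose and 1 fell, where 8.88% changed (2.16% rose and 6.73% fell). In cDC2 1 rose and 1 fell, where 11% changed (4.41% rose and 6.63% fell). The libraries of MI and SS did not overlap for 6 of the 10 genes in CD11c- cells, 5 in CD11c+ cells, 6 in cDC1 and 4 in cDC2, beside 14.1%, 11.8%, 13.1% and 23.1% of all genes in the same order. The MI effect differed among the cell types for 3 of the 10 genes, Itgax, Itgam and Itgal, and for 6.8% of all genes. The median log2 change of the 10 genes was 0.60 in CD11c- cells, 0.16 in CD11c+ cells, -0.40 in cDC1 and 0.08 in cDC2, beside -0.03 over all genes tested in each.

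The sorted populations were compared pairwise within each state, where any subunit used for gating would differ by that choice. In CD11c+ against CD11c- cells, 4 genes were higher and 0 lower in each state (Itgax, Itgal, Itgb2 and Itgb7), where 10.8% of all genes differed in MI and 12.9% in SS. In MI, Itga6 was called lower under DESeq2 (adjusted p = 0.039) and with the number as a block (0.0465). With these MI groups fitted alone Itga6 (4.13e-05), Itgb5 (0.0138) and Itgam (0.0383) were called lower and Itgae higher (0.0192, or 0.000154 under DESeq2). In SS, Itgae was called higher under DESeq2 (0.00689) and Itgam with some single libraries left out (0.0232 to 0.0418). The SS call of Itgal was lost with its groups fitted alone (0.0725). With the library number as a block Itga4 was also higher in SS CD11c+ cells (adjusted p = 0.047, against 0.109 without it), its ratio to CD11c- cells within a number being 1.4, 1.46, 4.12 and 1.28.

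In cDC2 against CD11c+ cells, 4 were higher in MI (Itgax, Itgb2, Itgb7 and Itgae) and 2 lower (Itga6 and Itgb5), where 10.1% differed. In SS 5 were higher (Itgax, Itgam, Itgal, Itgb2 and Itgb7) and the same 2 lower, where 15.4% differed. The MI call of Itgb2, like that of Itgax, was lost when any of 6 libraries was left out (adjusted p up to 0.197 for Itgb2). That of Itgb5 in MI was lost without MI cDC2 library 2 (0.126) or 3 (0.0813). The SS call of Itgal was lost under 3 of 14 alternatives (adjusted p up to 0.112). Itgb7 was 5.19-fold higher in MI and 5.11-fold in SS, and Itga6 was 5.2-fold lower in MI and 9.26-fold in SS. In cDC1 against cDC2, 2 were higher in MI (Itgal and Itgae) and 4 lower (Itgax, Itgam, Itgb1 and Itgb5), where 26.8% differed. In SS 2 were higher (Itgb7 and Itgae) and 6 lower (Itgax, Itgam, Itgal, Itgb2, Itgb1 and Itgb5), where 28.2% differed. The SS call of Itgb7 (adjusted p = 0.0457) was lost under 9 of 14 alternatives (adjusted p up to 0.0898), and that of Itgb1 without SS cDC1 library 1 (0.0523). Itgam was 58.8-fold lower in cDC1 than cDC2 in MI (adjusted p = 1.3e-20) and 40.5-fold in SS (adjusted p = 3.72e-20). Itgal ran in opposite directions, 4.08-fold higher in cDC1 than cDC2 in MI (adjusted p = 6.25e-06) and 1.67-fold lower in SS (adjusted p = 0.0363), the SS call being lost under 10 of 14 alternatives.

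In cDC2 against CD11c- cells, 5 were higher in MI (Itgax, Itgal, Itgb2, Itgb7 and Itgae) and 2 lower (Itga6 and Itgb5), where 26.4% of all genes differed. In SS all 10 differed, 8 higher and the same 2 lower, where 35.2% differed, although Itgb1 was lost under 11 of 14 alternatives. In cDC1 against CD11c+ cells, 4 were higher in MI (Itgal, Itgb2, Itgb7 and Itgae) and 5 lower (Itgax, Itgam, Itgb1, Itga6 and Itgb5), where 36% differed. In SS 2 were higher (Itgb7 and Itgae) and 3 lower (Itgam, Itga6 and Itgb5), where 33.3% differed. In cDC1 against CD11c- cells, 5 were higher in MI (Itgax, Itgal, Itgb2, Itgb7 and Itgae), where 45.4% differed, and the same 5 and Itga4 in SS, where 42.8% differed. Itgam, Itga6 and Itgb5 were lower there in both states. With only these SS groups fitted, the call of Itga4 was lost (adjusted p = 0.0508).

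Among 17 other integrin subunits, of which 12 passed the filter, 1 rose in MI CD11c- cells, 1 fell in CD11c+ cells, 1 rose and 2 fell in cDC1, and 1 fell in cDC2. Of all genes, 7.39%, 4.84%, 8.88% and 11% changed in the same order. Itgav, the alphaV partner of Itgb5, rose to 239.9 ± 19.5 CPM in MI CD11c- cells, against 122 ± 30.9 CPM in SS (1.97-fold, adjusted p = 0.000175), and to 111 ± 7.65 CPM in MI cDC1, against 75.1 ± 11.4 CPM in SS (adjusted p = 0.026). The monocyte sum, given above, was higher in MI in both, and its part in the rise of Itgav was not tested. Itga9 fell to 46 ± 8.33 CPM in MI CD11c+ cells, against 116 ± 50.2 CPM in SS (adjusted p = 0.00826), and to 6.3 ± 0.86 CPM in MI cDC2, against 22.5 ± 8.83 CPM in SS (adjusted p = 0.00137). Its level was highest in CD11c- cells, at 135 CPM in MI and 168 CPM in SS. The macrophage sum was also lower in MI in cDC2, as given above, and in CD11c+ cells (22105 to 28081 CPM against 31034 to 40702 CPM). Its part in the fall of Itga9 was not tested. Itga5, the fibronectin receptor's alpha subunit, fell to 31.7 ± 5.16 CPM in MI cDC1, against 69.8 ± 29.9 CPM in SS (adjusted p = 0.000436). The endothelial and macrophage sums, given above, were also lower in MI cDC1. So was that of 8 mural cell markers, at 0.819 to 2.6 CPM in MI against 38.5 to 150.2 CPM in SS. The part of these cells in the fall of Itga5 was not tested. The list's median log2 change, with groups at 0 set to their bound, was 0.06 in CD11c-, -1.64 in CD11c+, -0.58 in cDC1 and -1.25 in cDC2 cells.

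Further genes switch integrins on or carry their signals. Of 18 activation genes, 17 passed the filter, and 1 rose in CD11c- cells, 1 fell in CD11c+ cells, 1 rose and 3 fell in cDC1, and 3 fell in cDC2, beside the 7.39%, 4.84%, 8.88% and 11% of all genes that changed. Rap1b, a small GTPase that activates integrins in leukocytes, fell to 836 ± 64.1 CPM in MI cDC2, against 1228 ± 195 CPM in SS (adjusted p = 0.0274), and Rasgrp2, an activator of Rap1, fell to 2.85 ± 1.15 CPM, against 26.9 ± 14.8 CPM in SS (adjusted p = 0.000941). The T cell, neutrophil and macrophage sums, given above, were also lower in MI cDC2. The part of these cells in the fall of Rap1b and Rasgrp2 was not tested. Of 18 signalling genes, 4 rose in CD11c- cells, 1 rose and 2 fell in CD11c+ cells, 1 rose and 1 fell in cDC1, and 2 rose and 2 fell in cDC2, beside the same shares of all genes. Fgr, a Src family kinase of myeloid cells, rose to 108 ± 18.6 CPM in MI CD11c- cells, against 17.7 ± 4.76 CPM in SS (6.14-fold, adjusted p = 4.63e-08), and Vav1, which signals downstream of integrins, rose in CD11c-, CD11c+ and cDC2 cells (adjusted p = 0.00461, 0.0107 and 0.000102). The monocyte sum, given above, was also higher in MI CD11c- cells, and its part in the rise of Fgr was not tested. The list medians were 0.16, -0.02, -0.04 and -0.18 for activation and -0.02, -0.03, -0.07 and -0.07 for signalling, in CD11c-, CD11c+, cDC1 and cDC2, on the log2 scale.

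Of 18 integrin ligands and counter-receptors, 15 passed the filter, and 2 rose and 1 fell in CD11c- cells, 3 fell in CD11c+ cells, 8 fell in cDC1, and 4 rose and 5 fell in cDC2. Of all genes, 7.39%, 4.84%, 8.88% and 11% changed in these cell types, in the same order. In CD11c- cells Spp1, which codes for osteopontin, rose to 893 ± 199.8 CPM in MI, against 110.1 ± 93.3 CPM in SS (adjusted p = 0.000206), and fibronectin (Fn1) rose to 931 ± 291 CPM, against 64.6 ± 74.9 CPM in SS (adjusted p = 0.0013). The part of the monocyte sum, also higher in these MI libraries, in the rise of Spp1 and Fn1 was not tested. Icam1, the main ligand of LFA-1, fell to 195 ± 25.1 CPM in MI cDC2, against 613 ± 93.1 CPM in SS (adjusted p = 9.2e-06), and to 246 ± 81.2 CPM in MI CD11c+ cells, against 478 ± 115 CPM in SS (adjusted p = 0.00409). Cdh1, the E-cadherin bound by CD103, rose to 314 ± 94.4 CPM in MI cDC2, against 27.4 ± 11.3 CPM in SS (11.4-fold, adjusted p = 0.00157). F11r, the junctional molecule JAM-A that LFA-1 can bind, went opposite ways, higher in MI cDC2 at 369.9 ± 32 CPM against 90.4 ± 6.85 CPM in SS, and lower in MI cDC1 at 22.9 ± 4.15 CPM against 89.2 ± 16.2 CPM in SS. Jam2, a related junctional molecule, had 0 reads in MI cDC1 and 13.2 ± 10.8 CPM in SS cDC1 (adjusted p = 0.000167). The endothelial sum, given above, was also lower in MI cDC1, with Tie1, Tek and Emcn at 0, and its part in the fall of ligands was not tested. The list's median log2 change, with groups at 0 set to their bound, was -0.26 in CD11c-, -0.64 in CD11c+, -1.96 in cDC1 and -1.0 in cDC2 cells.

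The genes whose log2 level ran most like Itgax and Itgam over the 31 libraries were looked for among 8010 genes averaging 10 CPM or more. For Itgax they were Bhlhe40 (Pearson r 0.965), Adgrg5 (0.941) and Ezr (0.927). For Itgam they were Ccl9 (0.98), Cybb (0.977) and Ccrl2 (0.976). These correlations describe differences between 4 sorted cell types in shared libraries.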

How the data were processed

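The authors deposited raw counts of reads per gene for each library. The submitters' processing notes name mm10, SAMtools 0.1.18, TopHat2 2.1.0, Trimmomatic 0.35 and FastQC 0.11.4. The counting tool, annotation and strand setting are each not given in the sources used here. Per the labels' protocols, 4 ng of RNA was amplified with SMART-Seq v4 and read as 75 nt single reads. Entries for reads in no gene were left out of totals (no-feature reads 6.419% to 16.914%, ambiguous reads 0.857% to 1.206%).

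CPM are counts scaled by the reads in genes and TMM factors. Tests used edgeR 4.0.16 in R 4.3.3 (quasi-likelihood, robust, 1 mean per group over 31 libraries), after a filter with a minimum count of 10. P-values were adjusted by Benjamini-Hochberg over 13039 genes, and under 0.05 counted as changed. The script was tested on simulated counts. Same-numbered SS libraries deviated together between CD11c- and CD11c+ cells (r 0.1195 to 0.2026) and between CD11c- cells and cDC2 (0.109 to 0.1604), every pair over 0.1. The labels do not say that they are pairs. The main tests of those 2 comparisons did not pair them, and their values come from the unpaired fit unless an alternative is named. With the number as a block, 1967 genes were called in place of 1682 for CD11c+ against CD11c- cells in SS. For cDC2 against CD11c- cells in SS, 4917 were called in place of 4594. The alternatives were RLE and upper-quartile scaling, DESeq2 1.42.0, no filter, only the groups compared, replicate number as a block, SS numbers 1 and 4 or 2 and 3, and each library left out. CPM per kb divides by merged exon length. Positions are from GENCODE M21. Reads copied by PCR are not independent molecules, so the floor of 3 counts covers counting error only.

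All 10 genes are counted in every comparison, and those called are named. From each further list up to 3 called genes with the smallest adjusted p per MI comparison could be named. The genes and lists were chosen with earlier results of these data known. The genes most like Itgae in pattern are not reported here.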

Additional observations from a re-analysis of the deposited data

Results flagged for a closer look

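In 5 of 69 groups of 4 libraries tested, 1 library was flagged as apart from the other 3, where chance gives about 1 in 20. The gap to its nearest neighbour was over 0.829 of the group's range, which can be small in CPM. Itgb2 in SS cDC2 library 4 was 1145 CPM, below the others at 1257 to 1274 CPM. Itgae in SS CD11c+ library 4 was 7.301 CPM, above the others at 0 to 1.116 CPM, and without it the ratio of Itgae in SS cDC1 to CD11c+ cells was 1307-fold in place of 358-fold. Itgb1 in SS cDC1 library 1 was 417.8 CPM, below the others at 596.6 to 633 CPM. Itgb1 in SS cDC2 library 1 was 773.2 CPM, above the others at 732.5 to 733.7 CPM. Itgb5 in MI cDC1 library 1 was 18.2 CPM, above the others at 2.599 to 5.226 CPM, and without it Itgb5 was 208-fold lower in MI cDC1 than in CD11c+ cells in place of 114-fold.

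The MI effect differed among the 4 cell types for Itgax (F test, adjusted p = 6.66e-06), Itgam (adjusted p = 6.35e-05) and Itgal (adjusted p = 0.000197), 3 of the 10 genes, where 6.8% of all genes passed. For Itgax it differed between CD11c+ and CD11c- cells (adjusted p = 0.0031).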

How the results depend on the processing

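Over the 10 genes and 18 comparisons, 98 of 180 results were called and 84 of them were called under every alternative run, and 0 changed direction while called. Of the 11 calls of MI against SS, 8 were kept under every alternative. With only the groups compared in the fit, the genes called in CD11c+ against CD11c- cells were 2128 in MI (1411 with all groups) and 1099 in SS (1682), those in cDC2 against CD11c+ cells were 2148 in MI (1323) and 1204 in SS (2008), and the difference of the MI effect on Itgax was -1.95 (adjusted p = 0.0609). DESeq2 called 118 genes for the difference of the MI effect between CD11c+ and CD11c- cells, against 38. With 1 library left out, the count was 404 to 739 for MI against SS in CD11c+ cells, lowest without SS CD11c+ library 2. It was 897 to 1548 in cDC2, lowest without MI cDC2 library 1, and 799 to 1171 for cDC2 against CD11c+ cells in MI, lowest without MI cDC2 library 2. It was 21 to 55 for the difference of the MI effect. With upper-quartile scaling, 39.6% of the genes called between states in CD11c- cells were higher in MI, in place of 54.3%, and Itga6 there was lost (adjusted p = 0.0522). Outside the 2 SS comparisons with every pair over 0.1, same-numbered libraries did not all deviate together (correlations -0.0578 to 0.1709 within a state and -0.0472 to 0.0655 across states). In SS, all were still positive between cDC2 and CD11c+ cells (0.047 to 0.1709) and between cDC1 and cDC2 (0.0589 to 0.1541). With the replicate number as a block, 1116, 711, 1193 and 1801 genes were called for MI against SS in CD11c-, CD11c+, cDC1 and cDC2 cells. Of the 180 results, 5 changed their call, 1 of them (Itga4) in the 2 SS comparisons with every pair over 0.1. Depth limits Itgae outside cDC1, where a group held 0 to 511 reads.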
